A study of Rattus norvegicus with 11 samples.

Results

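The genes described here are 10 markers of axon injury and regeneration, Atf3, Jun, Sox11, Gap43, Stmn4, Gadd45a, Hspb1, Ecel1, Csf1 and Flrt3, out of 13888 genes that could be named on the array from the RefSeq accession of a probe. They were taken by name and not by their values, and each was found on exactly 1 probe. Total RNA of rat trigeminal ganglia (TRG), where the sensory neurons that supply the face have their cell bodies, was hybridised to 1-colour Agilent arrays. Male Wistar rats had received 1 unilateral subcutaneous injection of complete Freund's adjuvant (CFA, 50 µl at 1 mg/ml, an oil emulsion with killed mycobacteria that inflames the tissue) into a whisker pad, and the ganglia were removed 7 days later. The 11 arrays held 6 ganglia of the CFA (ipsilateral) side, of rats 1, 2, 3, 5, 6 and 8, and 5 of the contralateral side, of rats 1, 2, 3, 5 and 6. Rats are numbered by the number in the sample name, and sides with the same number were taken to be of 1 animal, which is an inference. The contralateral ganglia came from injected animals as well. A change shared by both sides of a rat is therefore not measured by this comparison, and ganglia of uninjected rats were not analysed here.

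When the axon of a sensory neuron is cut, a signal that travels back along the axon through stress kinases switches on transcription factors such as ATF3, c-Jun and SOX11 in the cell body. These drive genes for growth cone and microtubule proteins, for stress proteins and for secreted factors that act on neighbouring glia and macrophages. Atf3 in particular is little expressed in intact sensory neurons and is widely used to mark injured ones. Whether inflammation of the territory of a nerve, without a cut, is accompanied by the same genes is the question that these probes address.

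None of the 10 genes differed between the sides by the threshold of the study, an unadjusted p of 0.05 or less in limma with a change of more than 2-fold, which 2.02% of all 24684 probes passed. At an unadjusted p of 0.05 or less at any fold, which 10.8% of all probes reached, the count was also 0 of 10. The signals of the sides overlapped for all 10 genes, and 1.2% of all probes had sides without overlap. No probe of the array had an adjusted p of 0.05 or less in limma (0% of all probes), and the 10 genes had adjusted p values from 0.466 for Csf1 to 0.998 for Atf3. The median log2 difference, CFA minus contralateral, was 0.02 over the 10 genes and -0.04 over all probes, and the median of its absolute size was 0.09 against 0.17. Of the 10 genes 8 were well above background on every array, and the median of the absolute difference over the 17512 probes for which this held was 0.14. In whole ganglia fewer cells of a type and less RNA per cell cannot be told apart.

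The precision differed between the probes. The 95% interval of the difference lay within 1.5-fold in both directions for 8 of the 10 genes and within 2-fold for 9, the exception to both being Ecel1, and Stmn4 being the other gene beyond 1.5-fold. The pooled SD within groups ranged from 0.09 to 0.90 log2 units over the 10 genes, with a median of 0.18 against 0.31 for all probes. On every array 1 spot was read for each gene, and none of these spots was marked as an outlier or as saturated.

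**Figure D1:**
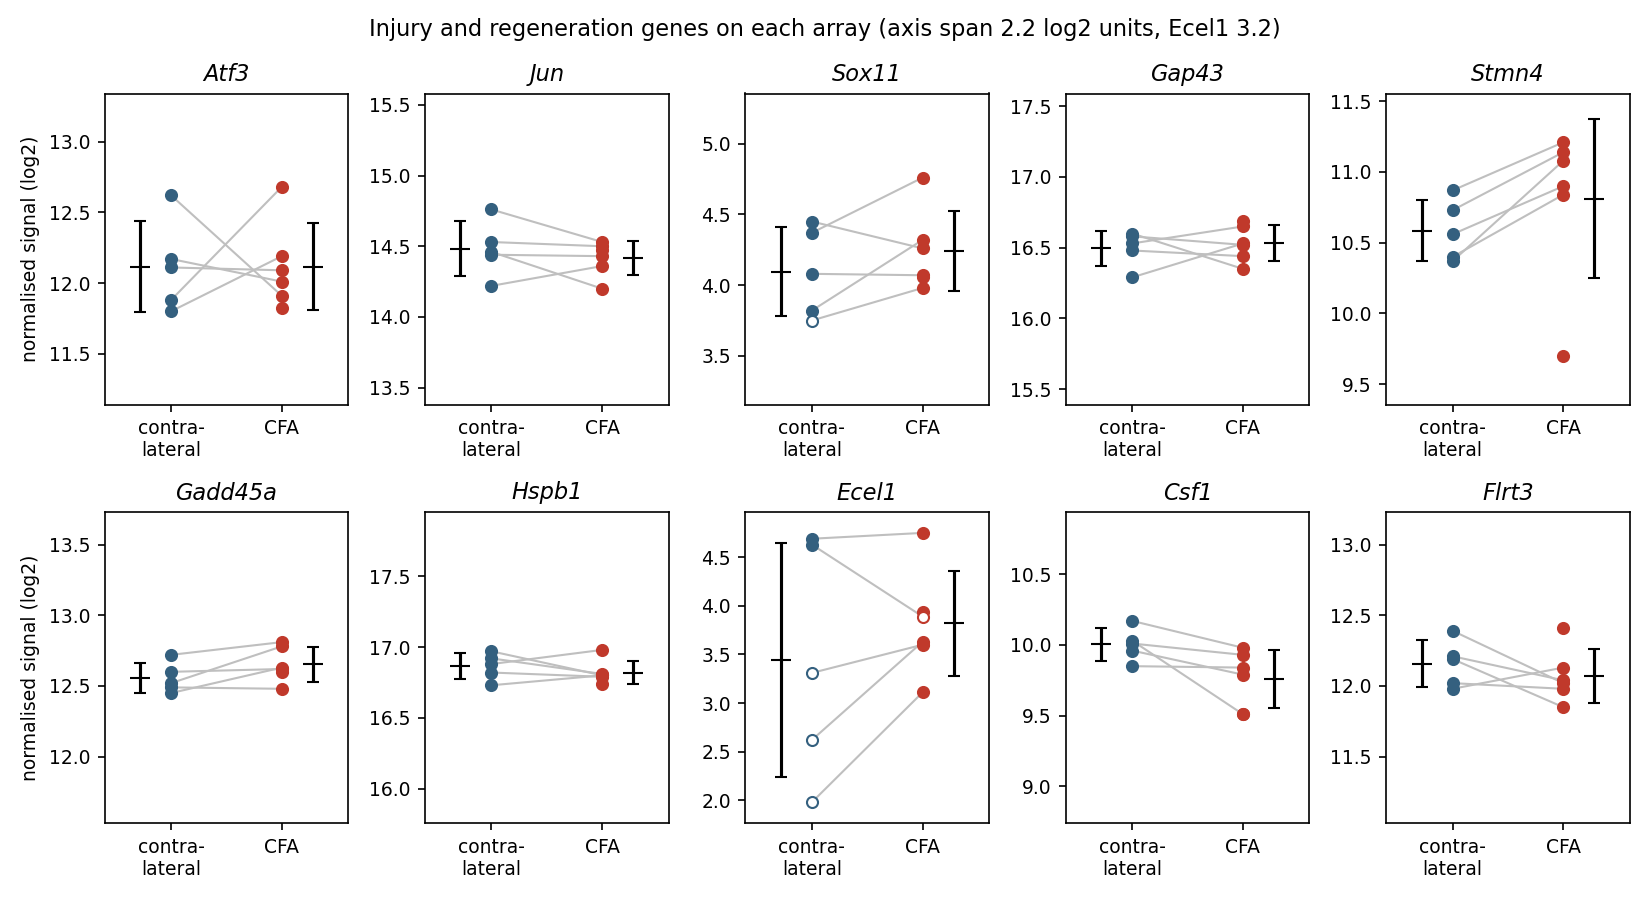
Normalised signal (log2) of the 10 genes on each of the 11 arrays, blue for the 5 contralateral ganglia and red for the 6 CFA ganglia. Grey lines join both sides of 1 rat, open points are spots not well above background, and black bars are mean ± SD. The groups overlap for every gene, and the CFA side of rat 8 lies at 9.70 for Stmn4, below all other arrays.

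Atf3 encodes a stress-induced transcription factor of the ATF/CREB family. Its normalised log2 signal was 12.11, 12.62, 12.17, 11.80 and 11.88 contralaterally in rats 1, 2, 3, 5 and 6. On the CFA arrays it ranged from 11.82 (rat 8) through a median of 12.05 to 12.68 (rat 6). The highest array of either side belonged to a different rat, rat 2 on the contralateral side and rat 6 on the CFA side, and the ranges nearly coincided. The means were 12.12 ± 0.31 (SD, n = 6) and 12.12 ± 0.32 (SD, n = 5), with a log2 difference of 0.00 and a 95% interval from -0.40 to 0.40, that is 0.758- to 1.32-fold (adjusted p = 0.998 in limma). Within rats the CFA side stood 0.80 above the contralateral side in rat 6 and 0.39 above it in rat 5, and 0.70 below it in rat 2. The sides of rats 1 and 3 differed by -0.02 and -0.16. Thus rats with a large difference between the sides were present in both directions, and the mean difference over the 5 rats was 0.06. The probe was bright on both sides, with a processed signal of 2960 to 8470 against array medians of 74.6 to 117. Whether Atf3 was raised on both sides cannot be read here, because no ganglia of uninjected rats were analysed.

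Jun encodes c-Jun, a subunit of the AP-1 transcription factor that is phosphorylated by the JNK kinases. Its signal lay between 14.20 and 14.53 in CFA ganglia and between 14.22 and 14.76 in contralateral ganglia. The log2 difference was -0.07 ± 0.10 (SE), with an interval from -0.30 to 0.16. The CFA side was lower in 4 of the 5 rats, by at most 0.26.

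Sox11 encodes an SRY-box transcription factor that is active in developing neurons and promotes axon growth. Its probe was dim, from 3.75 to 4.76, and was well above background on all 6 CFA arrays and 4 of the 5 contralateral ones. The means were 4.24 ± 0.28 (SD, n = 6) and 4.10 ± 0.32 (SD, n = 5). The log2 difference of 0.15 had an interval from -0.24 to 0.53, and the CFA side was higher in 3 of 5 rats.

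Gap43 encodes a membrane phosphoprotein of the growth cone. CFA ganglia spanned 16.35 to 16.69 and contralateral ganglia 16.29 to 16.60. The log2 difference was 0.03 ± 0.09 (SE), with an interval from -0.16 to 0.23, and the CFA side was higher in 2 of 5 rats.

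Stmn4 encodes a neuronal member of the stathmin family, which binds tubulin and destabilises microtubules. Its signal was 10.37, 10.87, 10.73, 10.56 and 10.40 contralaterally in rats 1, 2, 3, 5 and 6. The CFA arrays of the same rats read 11.08, 11.21, 11.14, 10.90 and 10.84, and the CFA array of rat 8, which has no contralateral partner here, read 9.70. The 4 highest CFA arrays stood above every contralateral array, that of rat 6 lay within the contralateral range, and that of rat 8 was the lowest of all 11. Over all arrays the log2 difference was 0.23 ± 0.25 (SE), with an interval from -0.33 to 0.78 (adjusted p = 0.72 in limma). Within rats the CFA side was higher in 5 of 5, by 0.34 to 0.71, a pattern that 4.74% of all probes showed.

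With the rat as a block, a fit that uses the 10 arrays of the 5 rats with both sides, the difference of Stmn4 was 0.45 with an interval from 0.20 to 0.69. Its unadjusted limma p was 0.00437 and its adjusted p 0.36, and an exact sign-flip permutation test over the 5 rats gave p = 0.0625, the smallest value that 5 rats allow. In that fit 3.8% of all probes were higher at an unadjusted p of 0.05 or less. Without the CFA array of rat 8 the unblocked difference was also 0.45, with an unadjusted p of 0.00476 in limma and an exact permutation p of 0.0159 over the splits of 10 arrays. The call therefore rested on whether the ganglion of rat 8 was included. The mean level of 11 neuron markers spanned 13.21 to 13.57 in CFA ganglia and 13.21 to 13.48 in contralateral ganglia, and it followed Stmn4 over the 11 arrays with Pearson r = 0.70. The part of neuron content in the result was not tested.

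Gadd45a encodes a stress-induced protein of growth arrest and DNA repair. CFA ganglia spanned 12.48 to 12.81 and contralateral ganglia 12.45 to 12.72. The log2 difference of 0.10 ± 0.09 (SE) had an interval from -0.09 to 0.29. The CFA side was higher in 4 of 5 rats, by at most 0.26.

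Hspb1 encodes the small heat shock protein HSP27, which protects injured sensory neurons. CFA ganglia spanned 16.74 to 16.98 and contralateral ganglia 16.73 to 16.97. Its interval, from -0.21 to 0.13 around a difference of -0.04, was the narrowest of the 10. A heat shock element is a run of inverted GAA units to which heat shock factor binds, and the letters GAANNTTC, which read the same on both strands, were looked for in the promoter window of 300 bases (250 before to 50 after the annotated start). They occurred 2 times in the window of Hspb1, beginning 129 and 109 bases before the start, and in 8.59% of all 33469 windows. The stretch that holds them is shown because Hspb1 was the only one of the 5 genes whose windows were searched that held a match to a motif searched. It lies at chr12:26432373-26432460 of the RefSeq assembly GRCr8, on the minus strand, and is printed 5′ to 3′ on that strand with the matches GAAGTTTC and GAACCTTC in capitals.
Hspb1: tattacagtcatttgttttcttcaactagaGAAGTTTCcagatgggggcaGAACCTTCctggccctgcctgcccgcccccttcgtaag

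Windows were at hand for 5 of the 10 genes, Hspb1, Gadd45a, Sox11, Ecel1 and Flrt3. The AP-1 letters TGACTCA, searched on both strands, occurred in 0 of these 5 and in 4.63% of all windows, and the cAMP response element TGACGTCA, which ATF family factors bind and which reads the same on both strands, in 0 of 5 and in 1.83%. A missing match says only that the letters are not in the window, and a match is a description of the sequence.

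Ecel1 encodes a membrane metalloprotease of neurons that is also known as DINE, for damage-induced neuronal endopeptidase. Its probe was dim and was well above background on 5 of the 6 CFA arrays and 2 of the 5 contralateral ones. The contralateral arrays of rats 1, 2, 3, 5 and 6 read 4.69, 4.63, 2.62, 3.31 and 1.98. The CFA arrays ranged from 3.11 (rat 6) through a median of 3.76 to 4.75 (rat 1). The contralateral arrays of rats 1 and 2 lay just below the CFA array of rat 1 and above the other CFA arrays, and those of rats 3 and 6 were lower than every CFA array. The log2 difference of 0.38 ± 0.50 (SE) had an interval from -0.73 to 1.48, which includes a doubling. With slide, inferred from the scan time, as a block the log2 difference was 2.11 at an unadjusted limma p of 0.00644. That difference was set by the 3 arrays of 1 slide. Its contralateral arrays, of rats 5 and 6, were not well above background for Ecel1. In that fit 1.37% of all probes were higher past the threshold of the study. With a floor of 10 on the signal and no block, the log2 difference of Ecel1 was 0.01.

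Csf1 encodes colony stimulating factor 1, a cytokine that injured sensory neurons release and that acts on the receptor CSF1R of macrophages and microglia. Its signal was 10.01, 10.17, 10.03, 9.96 and 9.85 contralaterally in rats 1, 2, 3, 5 and 6. The CFA side of rats 1, 2, 3, 5, 6 and 8 read 9.93, 9.98, 9.51, 9.79, 9.84 and 9.51. The CFA arrays of rats 3 and 8 were the lowest, 4 of the 6 CFA arrays lay below every contralateral array, and the groups overlapped. The CFA mean was 9.76 ± 0.20 (SD, n = 6), against a contralateral median of 10.01 with an SD of 0.12 (n = 5), and the means gave a log2 difference of -0.24 with an interval from -0.49 to 0.00, that is 0.845-fold. The unadjusted limma p was 0.0519, the adjusted p 0.466 and the two-sided exact permutation p over the 462 splits of the arrays 0.0476. The CFA side was lower in 5 of 5 rats, by 0.01 to 0.51, and the exact sign-flip permutation p over rats was 0.0625.

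Csf1 had the smallest p of the 10 genes, and it was lower, not higher, on the CFA side. It stood at rank 2745 of all probes by p. It passed an unadjusted p of 0.05 in 8 of 25 alternative fits, and within the slide that held both groups the difference was 0.03. Its level went with that of the list of 7 skeletal muscle markers (Pearson r = 0.84 over the 11 arrays), all well above background on every array, whose mean spanned 6.29 to 7.20 in CFA ganglia and 6.98 to 7.40 in contralateral ganglia. It went against the list of 10 Schwann cell markers (r = -0.80), whose mean ranged from 14.81 to 15.44 and from 14.77 to 15.04. These were the highest and the lowest Pearson r of the 10 genes with the 13 marker lists. By rank (Spearman) the correlations of Csf1 were 0.64 with the muscle list and -0.74 with the Schwann cell list. The part of these cells in the result was not tested.

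Flrt3 encodes a transmembrane protein with leucine-rich repeats that promotes neurite outgrowth. CFA ganglia spanned 11.85 to 12.41 and contralateral ganglia 11.98 to 12.39. The log2 difference was -0.09 ± 0.11 (SE), with an interval from -0.34 to 0.17, and the CFA side was lower in 4 of 5 rats.

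**Figure D2:**
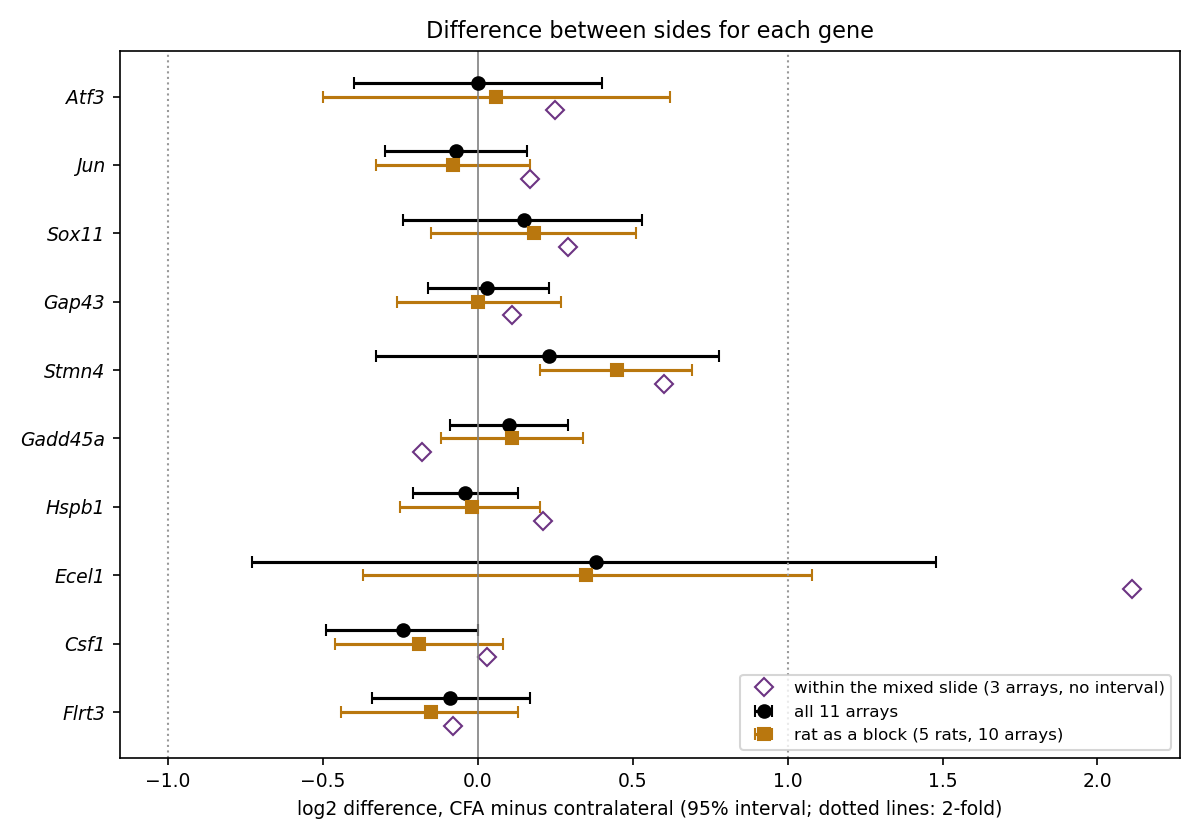
Log2 difference, CFA minus contralateral, of each gene with its 95% interval over all 11 arrays (black) and with the rat as a block (orange), and the difference within the slide that held both groups (purple diamonds, 3 arrays). Dotted lines mark a 2-fold change. The blocked interval of Stmn4, from 0.20 to 0.69, is the only one of these intervals clear of 0, and the diamond of Ecel1 lies at 2.11.

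Slides were inferred from the scan times, with arrays that shared a time taken as 1 slide. Slide, so inferred, and side were largely the same split of the arrays. Of the 5 slides, 1 held both groups (rat 1 of the CFA side, rats 5 and 6 of the contralateral side), so that slide and side cannot be told apart on the other 4. Within that slide the log2 difference was 0.25 for Atf3, 0.29 for Sox11, 0.11 for Gap43, 0.60 for Stmn4 and -0.08 for Flrt3. It was 0.17 for Jun, -0.18 for Gadd45a, 0.21 for Hspb1 and 0.03 for Csf1, in each case opposite in sign to the difference over all arrays. These values rest on 1 CFA array and have no replicate check.

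**Figure D3:**
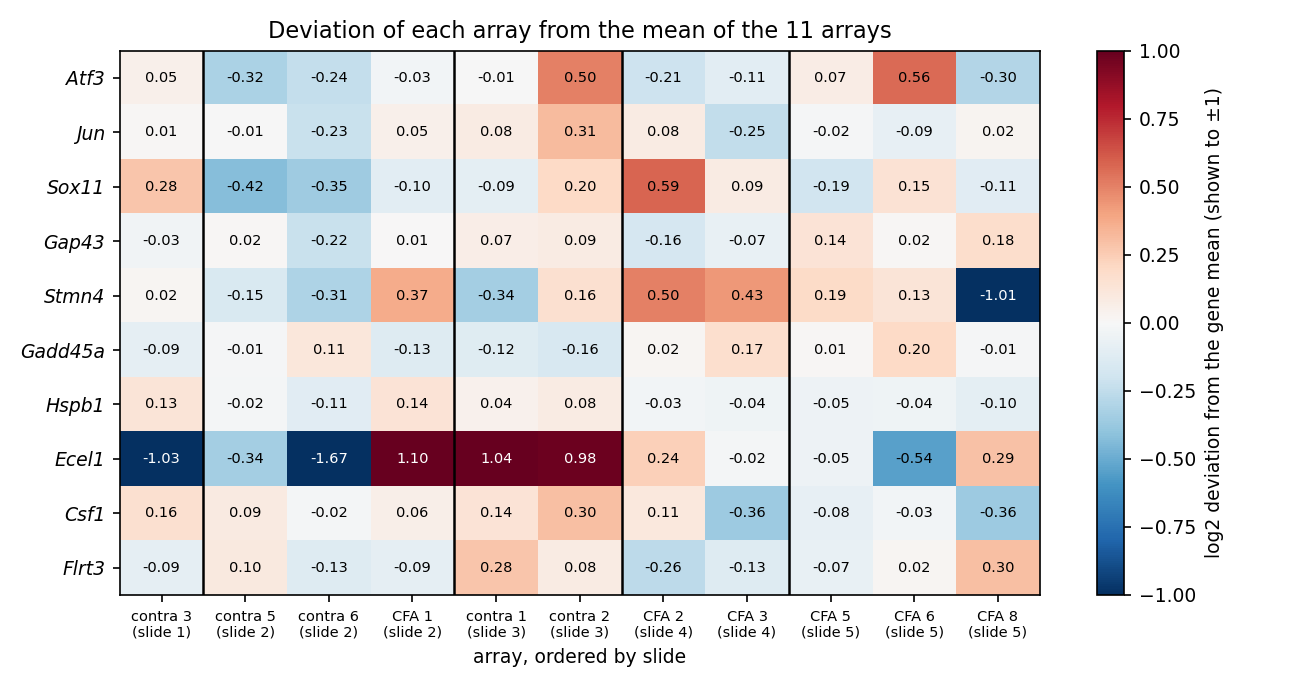
Deviation of each array from the mean of the 11 arrays for each gene (log2, colour scale from -1 to 1), with the arrays ordered by slide and black lines between slides. No column is high or low for all 10 genes. The contralateral array of rat 2 lies above the mean for every gene except Gadd45a (-0.16). That of rat 6 lies below the mean for every gene except Gadd45a (0.11). The CFA array of rat 8 lies 1.01 below the mean for Stmn4 and 0.30 above it for Flrt3.

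Correlations between the 10 genes over the arrays ran in both directions. The 45 pairs had a median Pearson r of 0.19, with a range from -0.81 to 0.72 over 11 arrays that share slides and, for 5 rats, an animal. Gap43 and Flrt3 gave the highest value, r = 0.72, followed by Jun and Ecel1 with 0.67 and Jun and Csf1 with 0.66. The lowest values were -0.81 for Jun and Gadd45a and -0.78 for Flrt3 and Stmn4. Atf3 had no value above 0.38 with another gene of the set, which it reached with Csf1. Among 11424 mRNA probes well above background on every array, the patterns most like that of Atf3 over the 11 arrays were those of Ly6g6e (r = 0.93), Ucn, which encodes the peptide urocortin (r = 0.92), and Hamp, which encodes the iron hormone hepcidin (r = 0.88). Their own log2 differences between the sides were -0.08, 0.32 and 0.29.

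Further genes of the injury response were read from 8 lists. Of the 149 genes listed 130 had a probe, 119 of them well above background on every array, and 0 passed the threshold of the study. At an unadjusted p of 0.05 or less in limma 5 of 130 were higher on the CFA side and 0 were lower (3.85% in all, against 4.02% of all probes higher and 6.75% lower), and the smallest adjusted p was 0.389. Their median log2 difference was 0.00, and none differed by more than 2-fold. With the rat as a block 4 of 130 were higher and 2 were lower at that p (against 3.8% of all probes higher and 6.1% lower), with a smallest adjusted p of 0.475, and only Itga7 and Batf3 were called in both fits. Crmp1, Calca and Mapk10 did not pass in the blocked fit (differences of 0.23, 0.21 and 0.71), while Atf5 (0.47), Apod (0.26), Flrt1 (-0.81) and Il6st (-0.33) did. Atf5 and Il6st are named here because the block changed their call, after their values had been seen. The counts list by list that follow are those without the block. Each stands beside the same 4.02% of all probes higher and 6.75% lower.

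**Figure D4:**
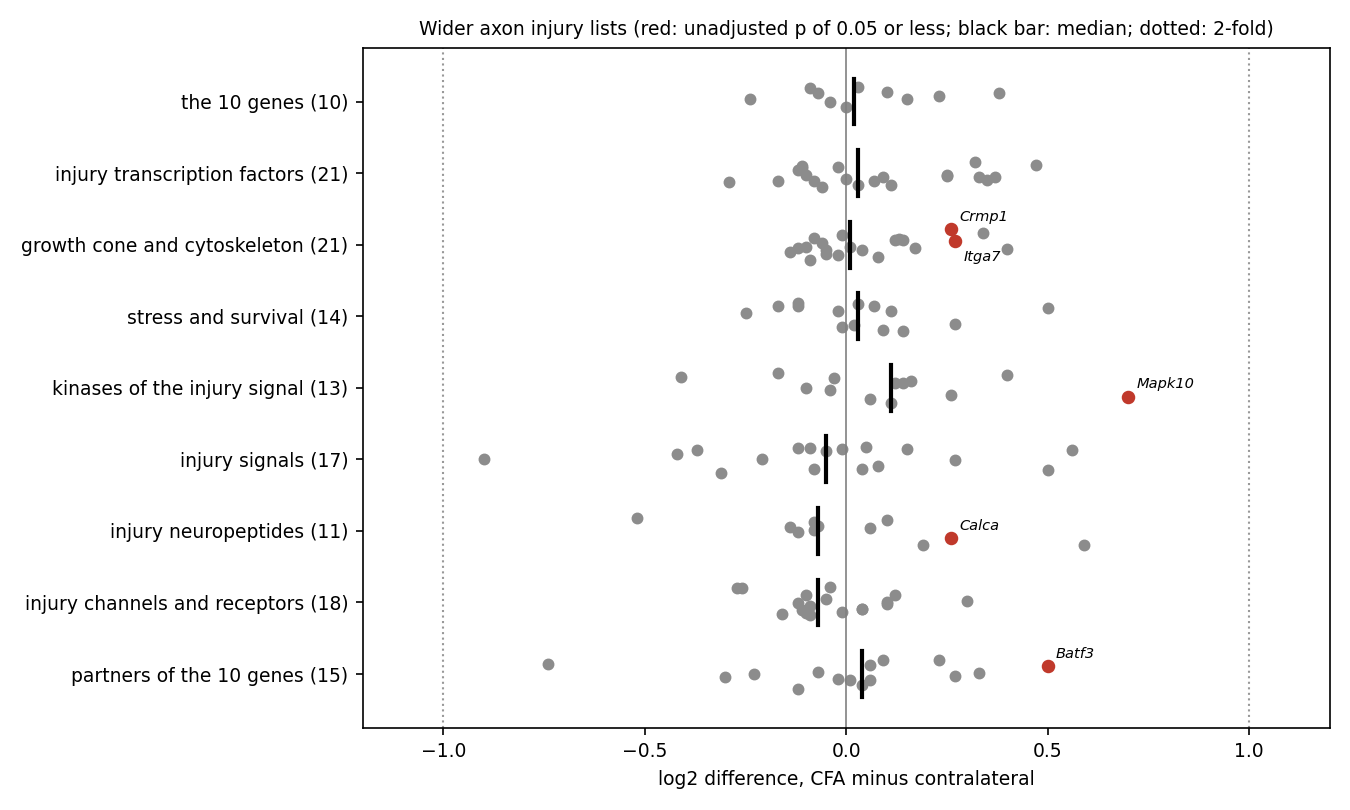
Log2 difference, CFA minus contralateral, of the 10 genes and of the measured genes of 8 wider injury lists (number in brackets), 1 point per gene, with the median of each list as a black bar. Red points are the 5 genes at an unadjusted limma p of 0.05 or less, Itga7, Crmp1, Calca, Mapk10 and Batf3, and all points lie inside the dotted 2-fold lines.

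Of 21 further transcription factors of the response 0 were past an unadjusted p of 0.05, with a median difference of 0.03. Among those with the smallest p values was Xbp1, a factor of the unfolded protein response (0.32 ± 0.18, SE), and Myc was at 0.37 ± 0.29 (SE). Of 21 growth cone and cytoskeleton genes 2 were higher and 19 did not pass. Itga7, the laminin-binding integrin alpha 7 subunit that assists axon growth, was at 15.05 ± 0.13 (SD, n = 6) against 14.78 ± 0.11 (SD, n = 5), a log2 difference of 0.27 with an adjusted p of 0.389 in limma. Crmp1, a collapsin response mediator, differed by 0.26 (adjusted p = 0.435 in limma), and Tubb2b, a beta tubulin, by 0.14 ± 0.08 (SE) without passing.

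Of 11 neuropeptides in the injury list 1 was higher. The lists were not split by the direction in which injury changes a gene, so a higher value is not by itself the injury direction. This was Calca, which encodes the pain peptide CGRP and is no specific marker of axotomy, with 17.46 ± 0.17 (SD, n = 6) against 17.20 ± 0.14 (SD, n = 5) and a log2 difference of 0.26 (adjusted p = 0.446 in limma). Adcyap1, which encodes PACAP, differed by 0.59 ± 0.41 (SE) and Tac1, which encodes substance P, by 0.06 ± 0.08 (SE), neither past the threshold. Gal and Npy, the peptides classically induced in axotomised sensory neurons, were not picked by the naming rule and were read for that reason, with differences of -0.08 ± 0.14 and -0.14 ± 0.38 (SE).

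Of 13 kinases of the injury signal 1 was higher, Mapk10, which encodes the neuronal kinase JNK3, with a log2 difference of 0.70 ± 0.31 (SE, adjusted p = 0.458 in limma). Within the slide that held both groups Mapk10 differed by -0.38. Mapk14, which encodes p38 alpha, and Mapk8ip1, a JNK scaffold, differed by -0.17 ± 0.11 and 0.12 ± 0.08 (SE) and did not pass. Of 15 partners of the 10 genes, which are their dimer partners, receptors and close relatives, 1 was higher, the AP-1 family factor Batf3 with 0.50 ± 0.21 (SE, adjusted p = 0.448 in limma). Csf1r, the receptor of CSF1, was at 14.16 ± 0.15 (SD, n = 6) against 14.39 ± 0.19 (SD, n = 5), a difference of -0.23 ± 0.11 (SE) that did not pass (adjusted p = 0.483 in limma). Flrt1, a relative of Flrt3, differed by -0.74 ± 0.38 (SE) without passing, and passed with the rat as a block.

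None of 14 stress and survival genes, 17 injury signals or 18 injury channels and receptors passed an unadjusted p of 0.05 without the block. Among the stress genes Sod2, the mitochondrial superoxide dismutase, differed by 0.27 ± 0.13 (SE), Gadd45b, a relative of Gadd45a, by -0.25 ± 0.13 and the chaperone gene Hspa5 by -0.12 ± 0.07. Among the signals Apod, a lipid carrier, differed by 0.27 ± 0.17, the stress cytokine Gdf15 by -0.31 ± 0.19 and Reg3b, a secreted lectin, by -0.42 ± 0.33 (SE). Among the channels and receptors the guidance protein gene Sema6a differed by -0.26 ± 0.15, Gfra1, a GDNF receptor, by -0.10 ± 0.09 and Cacna2d1, the calcium channel subunit that binds gabapentin, by 0.10 ± 0.10 (SE).

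Of the neuron markers 11 of 11 were well above background on every array. So were 7 of 7 skeletal muscle markers, 4 of 4 of red blood cells, 5 of 6 of central glia and 5 of 7 of the anterior pituitary. Presence above background therefore does not show that the samples held ganglion alone. At an unadjusted p of 0.05 or less in limma 1 of 95 markers in 13 cell type lists was higher, against 4.02% of all probes. Lower were 2 of 95, against 6.75% of all probes. Both were endothelial, the one with the smaller p being Tek with -0.30. In other lists the smallest p belonged to Uchl1 (-0.24) for neurons, Kcnj10 (-0.81, well above background on 2 arrays) for satellite glia, Csf1r for macrophages, Lcn2 (0.18) for neutrophils, Cd8a (-0.46) for T cells, Pdgfra (-0.14) for fibroblasts, Myh4 (-0.49) for skeletal muscle, Lhb (0.80) for the anterior pituitary, Alas2 (-0.44) for red blood cells and Aqp4 (0.35) for central glia. The mean of the 7 pituitary markers varied among ganglia of both sides, 6.04 to 12.57 in CFA ganglia and 6.26 to 11.85 in contralateral ganglia.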

How the data were processed

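The deposited intensity values of each array came from Feature Extraction 11.0.1.1, Agilent's image software, as the authors ran it, which had already subtracted a background that follows the position on the array. The spots marked as outliers (1.38%) were set to missing, control spots were left out, and the processed signal was taken to log2, quantile normalised between arrays and averaged over the spots of a probe, as the quantile normalisation and limma of the study's methods allow. The table of normalised values deposited by the authors, taken to log2 here, served as an alternative. Precision was limited by the number of arrays, and 68.9 to 82.8% of spots per array were well above background.

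CFA arrays (n = 6) were compared with contralateral arrays (n = 5) in limma 3.58.1 (R 4.3.3), with Benjamini-Hochberg adjustment over 24684 probes, beside two-sided exact permutation tests for single genes. Each array is 1 ganglion of 1 rat. The number in each sample name was taken as the rat, and sides with the same number were paired as 1 animal. This pairing is inferred, and all differences within rats and the fit with the rat as a block rest on it. The correlation of the deviations of both sides was between -0.08 and 0.13 and above 0.1 in 1 of 5 rats. The methods do not state whether the sides were paired, so the rat was left out of the fit and added as a block in an alternative. Scan days were read from the scan times. Slides were inferred from them, with arrays that shared a time taken as 1 slide. Probes were named through RefSeq accessions, which matched for 14274 of 15323 mRNA probes. For a gene with several probes the one with the highest mean signal was used.

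The 10 genes, the wider injury lists and the marker lists were chosen with earlier results of these data known. The named genes are all 10, up to 3 genes per wider list with the smallest p among those well above background on every array of a group, the gene with the smallest p of each marker list and the 3 mRNAs most like Atf3. Some genes that this rule names are not reported here. Alternatives were the block, another scaling, background correction or filter, a floor, an intensity trend, outlier spots kept, slide or scan day as a block, leaving out each array, and the mean of all probes of a gene. The heat shock letters were added after the promoter windows had been seen. The alternatives with normexp or without background correction used the median spot signal, because no mean spot signal was given. This change was made after seeing the data. The fit was tested on simulated data with known changes.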

Additional observations from a re-analysis of the deposited data

Results flagged for a closer look

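An array far from the others of its side was found in 2 of the 20 groups of values tested (10 genes on each of 2 sides), where chance flags about 1 group in 20. For Stmn4 the CFA ganglion of rat 8 read 9.70 on the log2 scale, and its gap to the next array took up 0.76 of the range of the 6 CFA arrays. For Hspb1 the CFA ganglion of rat 1 read 16.98, with a gap of 0.70 of the range, which itself spans only 16.74 to 16.98.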

How the results depend on the processing

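The median difference of the 10 genes was 0.02 and moved by less than the median SD of the genes, 0.18, under each of the 26 alternatives. It was 0.19 with slide as a block and within the mixed slide, -0.07 with 75th percentile scaling, and -0.04 to 0.07 when 1 array was left out. The threshold of the study was passed by 1 gene in 1 alternative, Ecel1 with slide as a block, and by 0 when any 1 array was left out. At an unadjusted p of 0.05 or less the count of 0 became 1 for Stmn4 with the rat as a replicate block (0.45), a fit that changed no other call among the 10, and for Ecel1 with slide as a block. It became 1 for Csf1 in the deposited table, with the filter on dim probes, the floor of 10, outlier spots kept or the mean of all probes of a gene, and it ranged from 0 to 1 when 1 array was left out. Those arrays were CFA rat 1 (Csf1, -0.28), CFA rat 2 (-0.29), contralateral rat 6 (-0.28) and CFA rat 8 (Stmn4, 0.45).

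Differences near 0 changed sign. Atf3 was at -0.06 with 75th percentile scaling, -0.01 with outlier spots kept, -0.03 with scan day as a block, 0.00 with the rat as a random effect and -0.11 to 0.13 when 1 array was left out. Gap43 was at -0.08 with that scaling and -0.02 to 0.07 with 1 array left out. Without background correction or with normexp, Jun was at 0.03 and Hspb1 at 0.04. With slide as a block, as within the mixed slide, Jun was at 0.17, Gadd45a at -0.18, Csf1 at 0.03 and Hspb1 at 0.21, and with slide as a random block Hspb1 was at 0.02. With scan day as a block Sox11 was at -0.02, Jun at 0.02, Gadd45a at -0.07 and Hspb1 at 0.12. Jun ranged from -0.13 to 0.00 with 1 array left out.

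Of the 130 genes of the wider lists 3 passed the threshold of the study with slide as a block, where 2.56% of all probes passed. With scan day as a block 1 passed, beside 1.8% of all probes. With 1 array left out 0 to 1 passed, the 1 being without contralateral rat 6. At an unadjusted p of 0.05 or less the 5 genes became 6 with the rat as a replicate block, of which 2 were among the 5, 3 with 75th percentile scaling, 9 with an intensity trend, 13 with slide as a block, 2 with slide as a random block, 8 with scan day as a block and 1 to 8 with 1 array left out (1 without contralateral rat 3, 2 without CFA rat 5, 3 without contralateral rat 1 or CFA rat 8, 8 without contralateral rat 5 or 6). Except for the rat block, the share of all probes at that p is not given for these alternatives. The counts are therefore not read as a result about the injury genes. Of all probes 2.02% passed the threshold of the study, against 0.0648% with normexp and 3.22% without contralateral rat 6, the lowest and highest values. The causes were not tested. The filter on dim probes left Ecel1 out, so it has no value there. With dim probes such as Sox11 and Ecel1 the low signal over background limits the precision.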
